A study of Mus musculus with 8 samples.

Results

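Notch receptors, their ligands and their target genes were followed by 10 genes: the ligands Dll4, Jag1 and Jag2, the receptors Notch1, Notch3 and Notch4, and the targets Hey1, Hey2, Hes1 and Nrarp. They were chosen by symbol, as every probe whose RefSeq accession names one of them. That gave 11 of the 55681 probes on the array, with 2 for Notch1 and 1 for each other gene, and all 10 genes were among the 14503 tested. Each of the 10 was represented by a probe well above background on all 6 replicate arrays.

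The induced group held mouse hemogenic endothelium (vessel lining cells that can turn into blood), carrying a doxycycline-inducible (Tet-on) Runx1 gene and treated overnight with doxycycline (labelled 0.3 µl/ml, a volume unit). The uninduced group held the same C57BL/6 cells without doxycycline. All cells came from embryonic stem cells by way of 3.25-day embryoid bodies, were sorted for the receptor Flk-1 before and after a further culture, and were then grown for 2 days with oncostatin, basic FGF and stem cell factor. Each group had 3 replicates and 1 technical repeat array. The repeats stayed out of every test except the reading of the authors' table by its column names, given below. The labels call the replicates independent biological ones. Whether the cells also carry an intact endogenous Runx1 gene is not given in the labels, and cells with doxycycline but no inducible gene were not analysed here, so doxycycline and Runx1 induction cannot be told apart.

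Notch receptors are cell surface proteins that are cut when a Delta-like or Jagged ligand on a neighbouring cell binds them. The released intracellular part joins the DNA-binding protein Rbpj and turns on genes such as Hes1, Hey1, Hey2 and Nrarp. In embryonic vessels this pathway sets arterial fate, and blood stem cells do not form in mouse embryos that lack Notch1.

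Values are log2 processed signals relative to the 75th percentile of the array, which lay between 543 and 973 on the induced arrays and between 338 and 699 on the uninduced ones. All 8 arrays lay on 1 slide and were scanned together. Probes differ in brightness, so levels of different genes are not compared, and a sum over marker genes mostly follows its brightest probes. Runx1 itself read -5.60 in induced and -4.57 in uninduced cells on average, a difference of -1.03. Its adjusted p was 0.126 in limma, which fits each gene by a linear model with a spread pooled across genes, adjusted by Benjamini-Hochberg over all 14503 genes, and 0.0214 with arrays paired by replicate number. Whether the inducible gene holds the sequence of that probe is unknown here, so it does not check the labels. The table of processed values that the authors deposited bears on the labels too, since 6 of its 8 columns tracked another array than the one they are named for. In order, the columns tracked uninduced arrays 1, 2, 3 and the technical repeat, then the induced arrays likewise, while their names alternate between the groups. The scanner files were used as named. With the authors' table read by its column names, 0 of the 14503 genes passed in limma (224 at an unadjusted p under 0.05) and the ligand Jag1 differed by 0.25. By tracking, its columns named induced 1, 2 and 3 held uninduced 2, the uninduced technical repeat and induced 2. Those named uninduced 1, 2 and 3 held uninduced 1, uninduced 3 and induced 1. By the scanner names each side of that reading thus mixed both groups, so it could not show how they differ. Read by the arrays its columns tracked, the table gave 930 genes that passed and Jag1 at -1.66, against 915 and -1.67 from the scanner files.

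Markers of the labelled cell type were present, with 8 of 8 endothelial markers (among them Cdh5, Kdr, Tie1 and Tek) well above background on all 6 arrays. Their summed signal was 56.7, 77.3 and 114 times the 75th percentile on induced arrays 1, 2 and 3, against 71.5, 130 and 171 times on uninduced arrays 1, 2 and 3. Cdh5 and Kdr were the brightest of these markers on each of the 6 arrays, so the sum mostly follows them. Within each numbered pair the induced array had the lower sum. Replicate 1 had the lowest sum in each group. Blood markers went the other way, with a summed signal of 53.7 to 59.5 in induced and 4.20 to 5.50 in uninduced cells. Of these markers 5 of 8 rose (Spn, Itgb3, Gfi1, Ikzf1 and Myb), where 4.14% of all genes rose. Gfi1 lost its call without induced replicate 2 or uninduced replicate 2. The others did not pass, with Itga2b at 0.63 (adjusted p 0.666), Ptprc, the pan-leukocyte marker CD45, at -0.19 (adjusted p 0.562), and Spi1 well above background on 0 of 3 uninduced arrays. Itgb3 made up 57.4% to 84.6% of the blood sum on induced arrays and 38.0% to 72.2% on uninduced ones. Smooth muscle and mural markers, 6 of 8 of them measured, summed to 496 to 610 in induced and 714 to 818 in uninduced cells, with 0 past the threshold. Acta2 and Tagln made up 99.1% to 99.5% of that sum on induced arrays and 99.3% to 99.4% on uninduced ones, and the technical repeats summed to 633 in the induced and 671 in the uninduced group. The pericyte and smooth muscle genes Rgs5 and Myh11 were not among those measured. In such bulk samples, fewer cells of a type and less RNA per cell cannot be told apart.

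**Figure D1:**
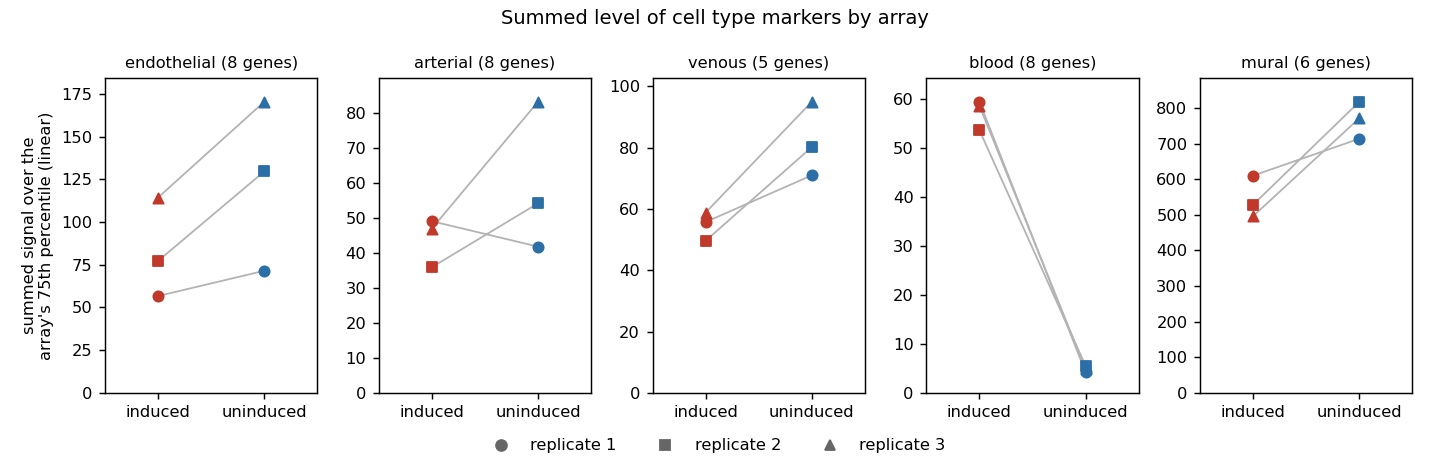
Summed linear signal of 5 marker lists on each replicate array, with induced arrays on the left of each panel and uninduced arrays on the right, and lines joining arrays of the same replicate number. Blood markers lie between 53.7 and 59.5 on the induced arrays and between 4.20 and 5.50 on the uninduced ones, while replicate 1 has the lowest endothelial sum in each group.

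The comparison asked how these Notch genes differ between cells with and without Runx1 induction. The ligand Jag1 fell 3.18-fold, while the other 9 genes did not pass the threshold of adjusted p under 0.05. With the replicate number as a block, which sets each induced array against the uninduced array of its number, the receptor Notch4 fell 4.67-fold and the feedback inhibitor Nrarp rose 3.62-fold as well. Fold sizes are the same in both fits, and what the block changes is the error. The sizes for Notch4 and Nrarp rest on few arrays. With 1 array left out and no block, the log2 difference of Notch4 was -3.10 (without induced replicate 3) to -1.44 (without induced replicate 1). That of Nrarp was 1.10 (without induced replicate 3) to 2.68 (without induced replicate 1). Such fits leave a numbered pair incomplete. With the block and a whole pair left out, the difference was -2.48 to -2.09 for Notch4 and 1.47 to 2.08 for Nrarp. The ligand Dll4 read lower on every induced array than on any uninduced one, but missed the threshold in both fits. The classical targets Hes1, Hey1 and Hey2 passed in neither.

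Of the 10 genes, 0 rose and 1 fell, where 4.14% and 2.17% of all 14503 genes rose and fell. With the block, 1 rose and 2 fell, where 9.37% and 6.81% of all genes did, 16.2% in all. The median difference of the 10 genes was -0.26, against 0.09 for all genes. With 1 array left out it was between -0.62 (without uninduced replicate 1) and -0.13 (without uninduced replicate 3), and with spike-in scaling it was 0.86, against 1.22 for all genes. Groups that did not overlap, with all 3 induced arrays below all 3 uninduced ones, were seen for 2 of the 10, Dll4 and Jag1, and for 8.71% of all genes. All 3 induced arrays lay above all 3 uninduced ones for 0 of the 10 and for 19.6% of all genes. Induced arrays were lower in all 3 numbered pairs for Notch4, Dll4 and Jag1, and higher in all 3 for Notch3 and Nrarp, where 21.8% of all genes were lower and 37.8% were higher in all 3.

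**Figure D2:**
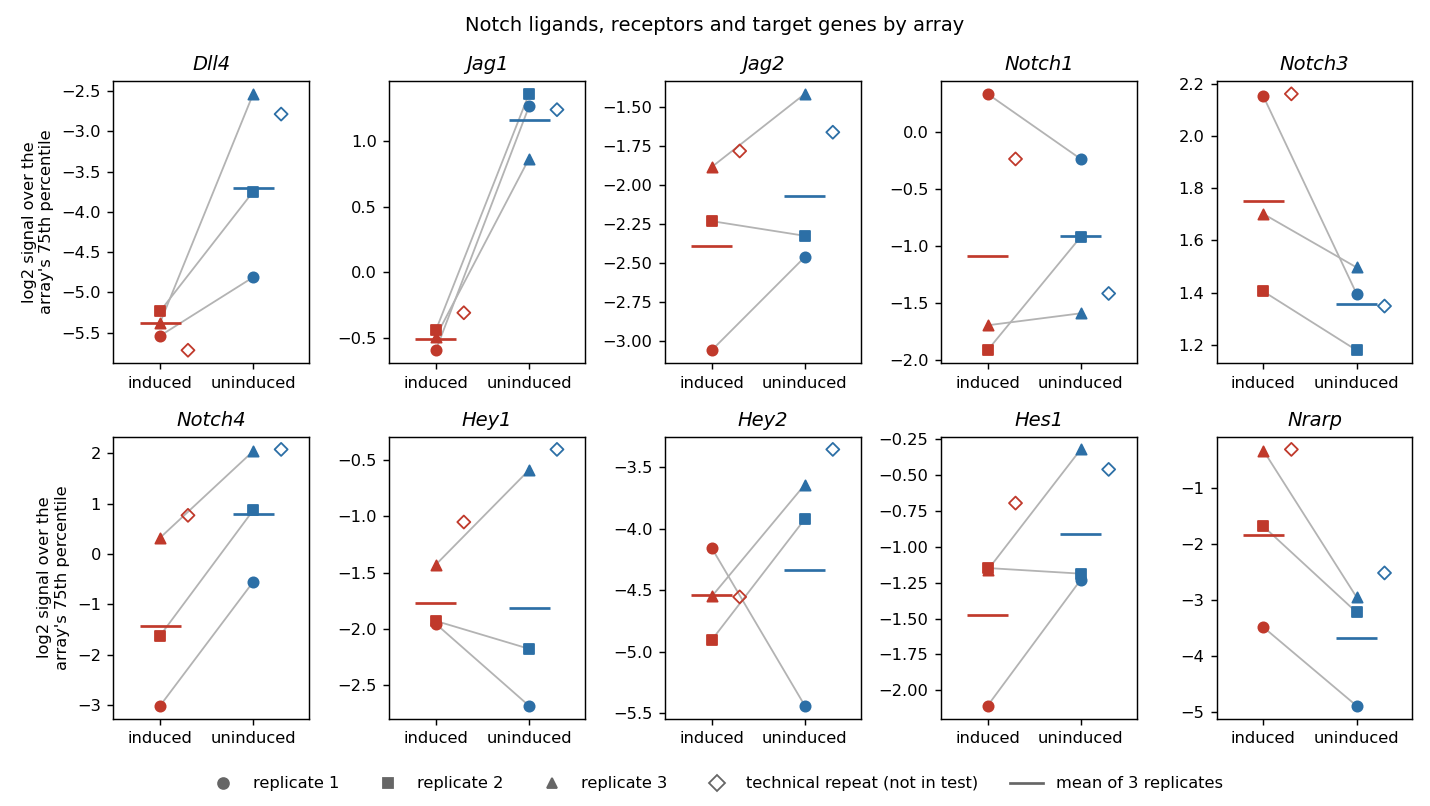
Log2 signal over the 75th percentile of the array for the 10 genes, with induced arrays on the left of each panel, uninduced arrays on the right, lines between arrays of the same replicate number, bars at the mean of 3 replicates and open diamonds for the technical repeats. The groups are apart for Jag1 (means -0.51 and 1.16) and Dll4. For Notch4 and Nrarp the lines slope the same way in all 3 pairs across widely spread replicates, though not equally steeply. The pairs differ by -2.46, -2.49 and -1.72 for Notch4 and by 1.41, 1.54 and 2.62 for Nrarp.

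Jag1 encodes a membrane-bound Jagged ligand made by endothelial and smooth muscle cells. It read -0.59, -0.44 and -0.49 on induced arrays 1, 2 and 3, against 1.26, 1.36 and 0.86 on uninduced arrays 1, 2 and 3. The induced values lay within 0.15 of each other and far below all uninduced ones. The means were -0.51 ± 0.08 and 1.16 ± 0.26 (SD, n = 3 each), so Jag1 fell by 1.67 on the log2 scale (SE 0.17, adjusted p 0.00420 in limma). The technical repeats read -0.31 in the induced and 1.24 in the uninduced group, each far nearer to its own group than to the other. Jag1 ranked 138 of the 14503 genes by p, and it passed in all 6 fits that left out 1 array, with adjusted p between 0.00766 and 0.0238.

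The fall in Jag1 depended on what the arrays were scaled to. Against the 4 brightest E1A spike-in probes, the median difference of all genes was 1.22 instead of 0.09, and that of Jag1 was -0.54 (SE 0.72, adjusted p 0.493), and it missed the threshold with the block too (adjusted p 0.130). Summed smooth muscle and mural markers were also lower in induced cells, as given above. Of their 6 measured genes Acta2 and Cspg4 fell with the block (by 0.65 and 0.79), where 6.81% of all genes fell. The part of these markers in the Jag1 result was not tested.

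Dll4 encodes the Delta-like ligand of arterial and sprouting endothelium. It was a dim probe, with processed signals of 20.9, 15.8 and 13.0 on induced arrays 1, 2 and 3, against 24.9, 28.2 and 58.4 on uninduced arrays 1, 2 and 3. On the relative scale these were -5.54, -5.23 and -5.38 in induced cells, against -4.81, -3.75 and -2.53 in uninduced cells. The groups did not overlap, and the spread lay almost wholly in the uninduced group (SD 0.15 in induced and 1.14 in uninduced cells, n = 3 each). The difference was -1.69 (SE 0.53), and its adjusted p was 0.131 without and 0.0508 with the replicate block. With normexp, a background correction that adds a fixed offset to the signal, the difference was -0.85. With the block it passed under quantile normalization (adjusted p 0.0420), median centring (0.00157) and normexp (0.0106), and missed under spike-in scaling (-0.56, adjusted p 0.116). Of the 6 fits with 1 array left out it passed in 1, that without uninduced replicate 1 (-2.24, adjusted p 0.0315), and the difference was smallest without uninduced replicate 3 (-1.11, adjusted p 0.176). The technical repeats read -5.72 in the induced and -2.78 in the uninduced group.

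Jag2, the other Jagged ligand, read -3.06, -2.23 and -1.89 in induced cells, against -2.46, -2.33 and -1.42 in uninduced cells. The groups overlapped, and replicate 2 was slightly higher when induced. The difference was -0.32 (95% interval -1.26 to 0.61) with an adjusted p of 0.651 in limma, so a change of the size seen for Jag1 lay outside its interval. The difference between the genes was not tested.

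Notch4 encodes a receptor found mainly in endothelium. It read -3.01, -1.62 and 0.32 on induced arrays 1, 2 and 3, against -0.55, 0.87 and 2.04 on uninduced arrays 1, 2 and 3. The groups overlapped, since induced replicate 3 lay above uninduced replicate 1, but the replicates kept the same order in each group. The numbered pairs differed by -2.46, -2.49 and -1.72, and the technical repeats by -1.31. Without the block the mean difference of -2.22 did not pass (SE 0.96, adjusted p 0.241). With it, it did (SE 0.19, adjusted p 0.00361). With the block Notch4 passed whichever pair was left out, with adjusted p between 0.000152 and 0.0258.

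The order of the Notch4 values, lowest in replicate 1 and highest in replicate 3, was that of the summed endothelial markers on the same arrays. Nrarp, Jag2, Hey1, the blood marker Gfi1 and the mural marker Pdgfrb had the same order in each group. The order was thus not particular to Notch4 or to endothelial genes. The induced technical repeat did not share the match between Notch4 and the endothelial sum. Its Notch4 value was 0.77, above all 3 induced replicates, and its endothelial sum was 71.6, below 2 of them. Among those markers Emcn and Esam, surface proteins of endothelial cells, differed by -2.84 and -2.17, with adjusted p of 0.243 and 0.186 without the block and of 0.00943 and 0.00671 with it. Cdh5, the cadherin of endothelial junctions, and Kdr, which is Flk-1 itself, differed by -0.28 and -0.34 and passed in neither fit. They were the brightest of these markers, so the endothelial sum mostly follows them. The part of endothelial content in the Notch4 difference was not tested.

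Notch1, the receptor that blood stem cell formation requires, was measured by 2 probes that differed between replicates. The brighter probe read 0.34, -1.91 and -1.70 in induced cells, against -0.23, -0.92 and -1.59 in uninduced cells, a difference of -0.18 (95% interval -1.72 to 1.37) with an adjusted p of 0.891. The dimmer probe read -6.65, -5.02 and -4.72 in induced cells, against -4.80, -3.92 and -3.93 in uninduced cells, a difference of -1.25 with an adjusted p of 0.289 among all probes tested. Induced replicate 1 was the highest of the 3 induced arrays on the brighter probe and the lowest on the dimmer one, which was well above background on 2 of 3 induced arrays. The mean of the 2 probes differed by -0.71 (SE 0.16, adjusted p 0.0539), so the size for Notch1 depended on the probe, and the interval of the brighter one covers changes of more than 2-fold in each direction.

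Notch3, a receptor known from smooth muscle and pericytes, read 2.15, 1.40 and 1.70 in induced cells, against 1.40, 1.18 and 1.497 in uninduced cells. The groups overlapped, although induced arrays were higher in every pair, by 0.76, 0.23 and 0.20. The difference of 0.40 (SE 0.22) did not pass without the block (adjusted p 0.349) or with it (0.153). The part of smooth muscle and mural content, whose summed markers are given above, was not tested.

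Nrarp encodes a small ankyrin repeat protein that Notch induces and that restrains Notch signalling in turn. It read -3.49, -1.68 and -0.33 on induced arrays 1, 2 and 3, against -4.89, -3.22 and -2.95 on uninduced arrays 1, 2 and 3. Its processed signal was 86.7, 185 and 433 in induced cells, against 23.5, 40.5 and 43.8 in uninduced cells, so these groups were apart before scaling and overlapped after it. The pairs differed by 1.41, 1.54 and 2.62, and the technical repeats by 2.21. The mean difference of 1.86 did not pass without the block (SE 0.86, adjusted p 0.270) but did with it (SE 0.27, adjusted p 0.0129). Nrarp passed with the block whichever pair was left out (adjusted p 0.00155 to 0.0408). With normexp the difference was 0.82, which passed with the block (adjusted p 0.0283).

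Hes1 encodes a repressor of the basic helix-loop-helix class and is a direct target of the cleaved receptor. It read -2.11, -1.15 and -1.16 in induced cells, against -1.23, -1.19 and -0.32 in uninduced cells. The groups overlapped, with replicate 2 nearly equal in both. The difference was -0.56 (95% interval -1.42 to 0.30), and it passed neither without the block (adjusted p 0.403) nor with it (0.144).

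Hey1 and Hey2 encode related repressors whose joint loss disrupts arterial fate in mouse embryos. Hey1 read -1.96, -1.93 and -1.43 in induced cells, against -2.69, -2.18 and -0.59 in uninduced cells. All 3 induced values lay within the range of the uninduced ones, and the pairs differed by 0.73, 0.25 and -0.84. Hey2 read -4.16, -4.91 and -4.55 in induced cells, against -5.44, -3.92 and -3.64 in uninduced cells, and its pairs differed by 1.29, -0.99 and -0.91. The mean differences were 0.05 for Hey1 (95% interval -1.21 to 1.30, adjusted p 0.966) and -0.20 for Hey2 (-1.36 to 0.95, adjusted p 0.824). The technical repeats differed by -0.65 for Hey1 and -1.20 for Hey2. The sign for Hey2 depended on the pair left out with the block, at -0.95, 0.19 and 0.15 without pairs 1, 2 and 3.

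Values of 6 of the 10 genes were lowest in replicate 1 in each group: Notch4, Dll4, Jag2, Hey1, Hes1 and Nrarp. The share of all genes with this order was not counted, so 6 of 10 is not shown to be unusual. Over genes, deviations from the group means correlated at 0.65 between induced and uninduced replicate 1. Notch1 was highest in replicate 1 in each group on its brighter probe. The arrays of replicate 1 had the brightest 75th percentile of their group, 973 in induced and 699 in uninduced cells, and the lowest summed endothelial markers, and the part of either in this order was not tested.

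**Figure D3:**
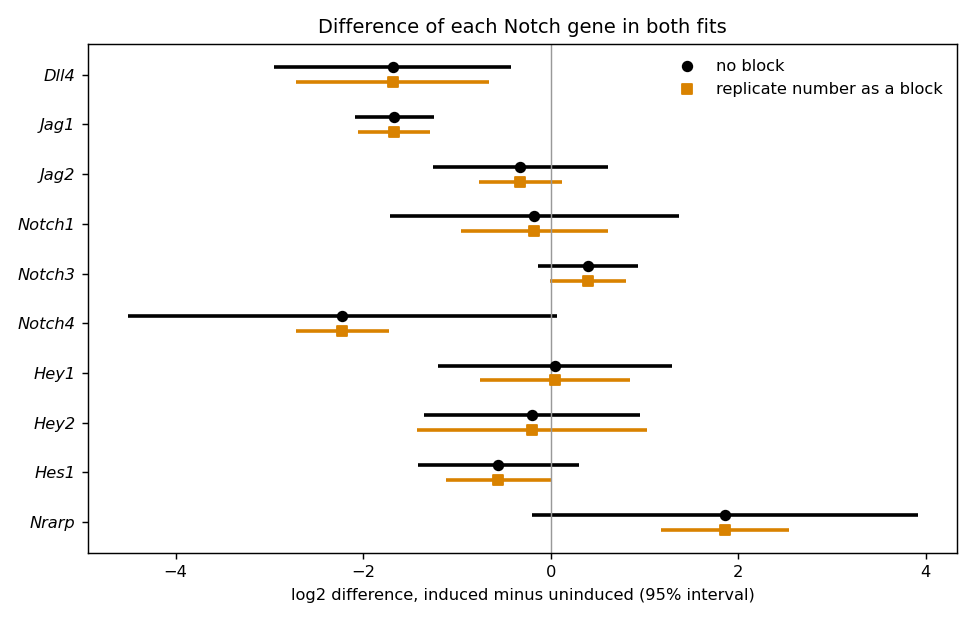
Log2 difference of each gene, induced minus uninduced, with its 95% interval in the fit without a block (circles) and with arrays blocked by replicate number (squares). Jag1 lies below 0 with a narrow interval in both fits (-2.08 to -1.25 without the block), while the intervals of Notch4 (-4.51 to 0.06 without the block and -2.72 to -1.73 with it) and Nrarp (-0.20 to 3.92 and 1.18 to 2.54) become much narrower with it.

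Promoter windows of 300 bases, 250 before and 50 after the start site, were read from RefSeq (GRCm38.p6) to show the DNA next to the genes that moved. They were found for 8 of the 10 genes, leaving Hes1 and Hey1. Each window was searched on both strands for a RUNX motif, spelled TGTGGT or TGCGGT, and for the core of the Rbpj motif, spelled TGGGAA. Neither spelling overlaps the other. The RUNX letters were in 0 of the 8 windows, where 22.4% of all 32851 windows in the table hold them. The Rbpj letters were in 1 of the 8, that of Hey2, where 25.6% of all windows hold them. A match is only a description of the letters, and a missing one says only that they are not in this window. The windows of the 3 genes that moved in either fit are those of Jag1 (chr2:137116471-137116770 on the minus strand), Notch4 (chr17:34564045-34564344 on the plus strand) and Nrarp (chr2:25180508-25180807 on the plus strand). That of Hey2 (chr10:30842734-30843033 on the minus strand) is shown for its 2 Rbpj matches, which are in capitals, the first as TTCCCA on the other strand and the second across the start site.
Jag1: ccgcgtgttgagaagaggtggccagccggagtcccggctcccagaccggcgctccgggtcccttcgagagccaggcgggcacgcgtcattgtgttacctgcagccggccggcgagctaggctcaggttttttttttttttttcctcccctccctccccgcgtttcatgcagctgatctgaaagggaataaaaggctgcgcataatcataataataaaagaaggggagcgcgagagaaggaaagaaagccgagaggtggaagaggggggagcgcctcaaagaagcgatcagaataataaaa
Notch4: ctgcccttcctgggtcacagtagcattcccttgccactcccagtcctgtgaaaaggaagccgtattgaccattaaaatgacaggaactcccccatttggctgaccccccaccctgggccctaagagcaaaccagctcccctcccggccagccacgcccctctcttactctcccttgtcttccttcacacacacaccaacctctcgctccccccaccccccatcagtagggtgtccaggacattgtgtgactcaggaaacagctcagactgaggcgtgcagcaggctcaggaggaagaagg
Nrarp: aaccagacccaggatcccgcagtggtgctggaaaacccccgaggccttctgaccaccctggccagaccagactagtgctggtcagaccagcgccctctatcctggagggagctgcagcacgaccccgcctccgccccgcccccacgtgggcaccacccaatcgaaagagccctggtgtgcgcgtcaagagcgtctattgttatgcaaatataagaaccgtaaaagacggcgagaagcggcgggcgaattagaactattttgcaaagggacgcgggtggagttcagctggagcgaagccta
Hey2: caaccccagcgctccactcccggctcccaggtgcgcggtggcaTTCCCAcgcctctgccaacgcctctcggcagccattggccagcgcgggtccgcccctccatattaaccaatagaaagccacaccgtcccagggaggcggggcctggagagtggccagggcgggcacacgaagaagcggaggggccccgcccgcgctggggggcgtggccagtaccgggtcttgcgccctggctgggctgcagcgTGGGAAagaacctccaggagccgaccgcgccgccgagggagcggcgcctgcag

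Among 69 further genes of the Notch pathway, 63 were measured: 7 rose, 1 fell and 55 missed the threshold, while 6.31% of all genes passed. The 7 were Dner, Notch2, Lfng, Dtx4, Tle3, Hes6 and Dtx1, and the 1 that fell was Tle4. The median difference of the 63 was 0.18, against 0.09 for all genes. With the block 10 rose and 3 fell, where 9.37% and 6.81% of all genes did, 16.2% in all. With 1 array left out 3 to 6 rose and 0 fell, the lowest count without uninduced replicate 2. Normexp left 4 that rose and 0 that fell.

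Among receptors and ligands outside the 10, Notch2 read 2.00, 2.08 and 2.10 in induced cells, against 1.07, 0.95 and 0.81 in uninduced cells. The groups were far apart, with a rise of 1.12 (SE 0.14, adjusted p 0.00771 in limma) that passed in all 6 fits with 1 array left out. Its other probe differed by only 0.13, so the rise rests on 1 of 2 probes. Dner, a Notch-binding protein known from neurons, rose by 3.11 (SE 0.47, adjusted p 0.0141), but was well above background on 1 of 3 uninduced arrays, and normexp put it at 0.51, short of the threshold (adjusted p 0.257). It did not pass without uninduced replicate 2 either (adjusted p 0.0553). Dlk1, a Delta-like protein without the domain that binds Notch in canonical ligands, differed by -0.97 (adjusted p 0.146) and fell with the block (adjusted p 0.00806), with its other probe at -1.09.

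Of the enzymes that add sugars to the receptor, 1 of 5 rose, where 4.14% of all genes rose. Lfng, a fringe glycosyltransferase that tunes the response of Notch to Delta-like and Jagged ligands and is itself a Notch target, read -1.93, -2.54 and -1.58 in induced cells, against -4.76, -4.24 and -3.41 in uninduced cells. The groups did not overlap. Its rise of 2.12 (SE 0.40) had an adjusted p of 0.0281 and passed in only 2 of the 6 fits with 1 array left out, losing the call without induced replicates 1 or 3 or uninduced replicates 1 or 2. With normexp it was 0.91 and did not pass (adjusted p 0.146).

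Deltex proteins are ubiquitin ligases that bind the receptor. Dtx4 read 1.02, 0.45 and 1.07 in induced cells, against -0.54, -0.72 and -0.78 in uninduced cells. Its rise of 1.53 (SE 0.21, adjusted p 0.00999) passed in all 6 fits with 1 array left out, and was 1.34 with normexp (adjusted p 0.00936). Dtx1, also a Notch target in lymphoid cells, had no uninduced array well above background. It was at least 1.94-fold higher in induced cells, relative to the lowest signal well above background on each array (adjusted p 0.00933), but with normexp it differed by 0.12 (adjusted p 0.722).

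In the nuclear complex, 1 of 20 rose and 1 fell, where 4.14% and 2.17% of all genes did. Both were Groucho-type corepressors that Hes proteins recruit. Tle3 read 4.26, 4.46 and 4.33 in induced cells, against 3.11, 3.25 and 3.39 in uninduced cells, a rise of 1.10 (SE 0.15, adjusted p 0.00922) that was lost by a small margin without uninduced replicate 2 (adjusted p 0.0512). Tle4 fell by 0.70 (SE 0.14, adjusted p 0.0375), a call lost in all 6 fits with 1 array left out. Its other probe differed by -0.25, and with spike-in scaling its difference was 0.43. Rbpj, the DNA-binding partner of all Notch receptors, differed by 0.57 (SE 0.16, adjusted p 0.102 and 0.0614 with the block).

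Of the 11 other measured genes listed as targets, 2 rose, Dtx1 and Hes6, where 4.14% of all genes rose. Hes6, an antagonist of Hes1, rose by 0.65 (SE 0.14, adjusted p 0.0489) and passed in 0 of the 6 fits with 1 array left out. Whether Notch acts on Hes6 in these cells was not tested. Gata2, a blood transcription factor that Notch turns on in hemogenic endothelium of mouse embryos, differed by 0.79 (adjusted p 0.0903) and rose with the block (adjusted p 0.0335). The helix-loop-helix gene Bhlhe40 differed by 0.95 (adjusted p 0.125) and rose with it too (adjusted p 0.0135). Hes3, Hes5 and Heyl were not well above background on all 3 arrays of either group.

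Genes for receptor cleavage and ligand uptake stayed below the threshold. Of 8 measured genes of receptor cleavage, 0 passed, where 6.31% of all genes did, with differences between -0.59 and 0.53. Among them Ncstn, a subunit of the gamma-secretase that frees the intracellular part, differed by -0.59 (adjusted p 0.0905) and fell with the block (adjusted p 0.0392). All 6 ligand ubiquitin ligase and endocytosis genes lay between -0.47 and 0.27 and passed in neither fit. Fbxw7, which marks cleaved Notch for destruction, differed by 0.90 (adjusted p 0.0903) and rose with the block (adjusted p 0.0312). Among the brightest pathway genes that did not pass, Dlk1 is given above. Epn1 differed by 0.24, Ctbp1 by -0.03, Hdac1 by 0.37 and Psenen by 0.21.

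**Figure D4:**
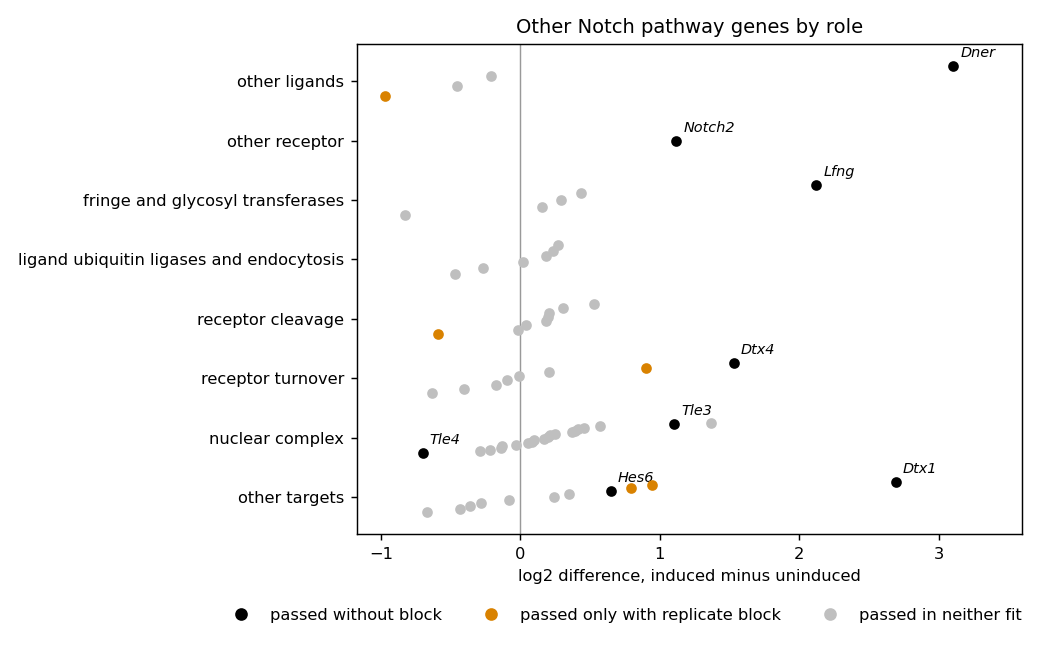
Log2 difference, induced minus uninduced, of the 63 measured pathway genes outside the 10, by role, with genes past the threshold without the block in black and named, those past it only with the replicate block in orange and the others in grey. Of the 8 named genes only Tle4, at -0.70, lies below 0. The positions of Dner and Dtx1 are measured differences from uninduced arrays of which 1 of 3 and 0 of 3 were well above background.

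Of the arterial markers 1 of 8 fell, where 2.17% of all genes did, Sox17 by 3.54 (SE 0.58, adjusted p 0.0181). This call was lost without induced replicate 2 or uninduced replicates 2 or 3. With the block 4 of the 8 fell, Sox17, Acvrl1 and the connexin genes Gja4 and Gja5, where 6.81% of all genes fell. Unc5b and Cxcr4 lay above 0, at 0.42 and 1.44 (adjusted p 0.288 and 0.413), Cxcr4 with 1 of 3 uninduced arrays well above background. Efnb2, an arterial ligand of Eph receptors that Notch activates, differed by -0.67 and passed in neither fit (adjusted p 0.206 and 0.133 with the block). Of the 5 venous markers 0 passed without the block and 3 fell with it, Ephb4, Aplnr and Flt4, where 6.81% of all genes fell with it. The endothelial markers Tek and Eng fell without the block, by 1.13 and 0.92 (adjusted p 0.0413 and 0.0234). Tek kept this call in 0 and Eng in 1 of the 6 fits with 1 array left out.

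The genes whose values over the 6 arrays were most like those of Jag1, after each gene was centred on its own mean, were Rhpn2, Zim1 and Svep1. The root mean square difference from Jag1 was 0.06 for Rhpn2, 0.12 for Zim1 and 0.14 for Svep1, and their differences between groups were -1.74, -1.74 and -1.48. With 14503 genes and 6 arrays close matches are easily found, so the list is a description.

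The direction of several differences depended on what the arrays were scaled to. With spike-in scaling Notch1, Jag2, Hey2 and Hes1 were above 0, at 0.95, 0.80, 0.92 and 0.57, with adjusted p between 0.25 and 0.473. Dll4, Jag1 and Notch4 stayed below 0, at -0.56, -0.54 and -1.10, and Nrarp, at 2.98, passed without the block (adjusted p 0.00141). This scaling added the same 1.13 to every gene, and its SE was 0.72 for each of the 10 genes. Their p there thus followed only the size of the difference, and the spread of Nrarp itself (SE 0.86 in the main fit) did not enter. The 75th percentile stood higher against the spike-ins on the induced array of each pair, by 1.02, 0.75 and 1.61, but by 0.35 between the technical repeats.

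**Figure D5:**
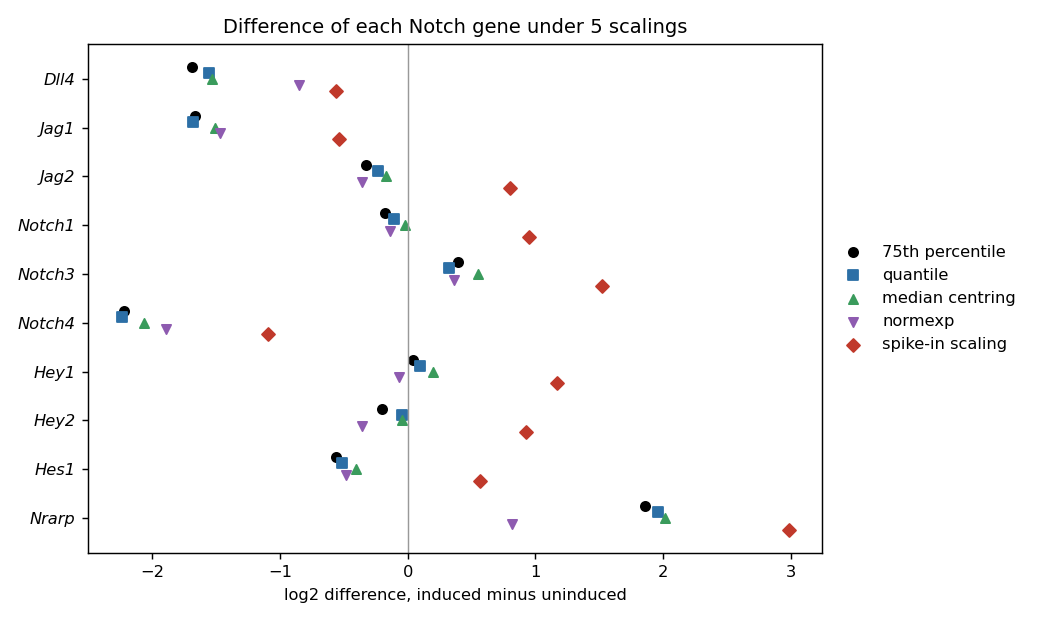
Log2 difference of each of the 10 genes, induced minus uninduced, under 5 ways of scaling the arrays. Spike-in scaling (diamonds) lies to the right of the others for every gene and puts Jag1 at -0.54 instead of -1.67, and normexp puts Dll4 and Nrarp nearer to 0 (-0.85 and 0.82).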

How the data were processed

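Each of 8 RNA samples was measured with Cy3 on its own Agilent 1-colour array. The authors deposited Feature Extraction output in which processed, median and background signals are linear intensity values per spot, with flags of 0 and 1 as other columns. The software version is 10.7.3.1 per the file headers, and 10.7.1.1 per the submitters' processing notes, which also name limma. A further table deposited by the authors holds log2 values, whose normalization and centring are not given in the sources used here. Over 19751 bright spots, 2 of its 8 columns tracked the array they are named for and 6 another array, so it served as an alternative in both readings. Its columns had medians of 5.37, 5.37, 5.38, 5.38, 5.38, 5.36, 5.38 and 5.36.

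Control and outlier spots were left out (outliers numbered 114 to 246 per array), no spot was saturated, the 75th percentile of its array was subtracted from each log2 processed signal, and repeated spots were averaged per probe. RefSeq accessions named 26582 of 55681 probes through the GRCm38.p6 table. Probes well above background on all 3 arrays of at least 1 group were kept, and the brightest stood for its gene. Groups and replicate numbers came from the titles. Induced and uninduced arrays were compared over 14503 genes with limma 3.58.1 under R 4.3.3 (lmFit, eBayes), two-sided, Benjamini-Hochberg adjusted over all genes. Every adjusted p is from this fit unless a block or alternative is named. Deviations from the group means correlated within same-numbered pairs at 0.65, 0.45 and 0.43 over genes. Between arrays of different numbers they correlated at -0.47 to 0.13. The numbers were therefore taken as pairs, a choice that rests on these same data. The fit with the block is given where it changes a call. On simulated data with 3 arrays a group the fit without the block recovered 75 of 100 genes changed by 2 and 90 of 100 changed by 3 on the log2 scale, with 11 false calls in all among 14503 genes. The simulated noise was independent between arrays, unlike the deviations shared within pairs here. The fit with the block was not simulated. The number of arrays limits the precision.

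Named were the 10 genes, pathway genes past the threshold and the 6 brightest others (1 of which is not reported here), markers past it, and the nearest 3 genes to each of the 10 that passed. Names given for calls made only with the block, and for Rbpj, Efnb2, Cdh5 and Kdr, were chosen after their values were seen. The members and lists were chosen with earlier results of these data known. Alternatives were normexp (offset 50, on median signals), quantile, median and spike-in scaling, the filter, the probe that stands for a gene, the authors' table, left-out arrays and the block. Combinations of the block with others and without a pair were chosen after seeing the data.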

Additional observations from a re-analysis of the deposited data

How the results depend on the processing

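Jag1 kept its fall and its side of the threshold in 21 of 24 alternatives, all but spike-in scaling without and with the block (-0.54 in both) and the authors' table by column name (0.25). That last reading mixed induced and uninduced arrays on each side, as given above, so its values do not compare the groups. The replicate block, which takes arrays of the same number as pairs, gave 2346 genes, 3 of the 10 Notch genes and 13 other pathway genes, against 915, 1 and 8 without it. Beside the calls named in the report it brought Spi1, a blood marker well above background on 0 of 3 uninduced arrays, past the threshold (at least 1.80-fold higher in induced cells, adjusted p 0.0306), and it changed no other call on a named gene. Normexp left 4 pathway genes, and no filter on dim probes left 534 genes and 5 pathway genes. The authors' table by column name gave 0 genes, 0 Notch genes and 0 pathway genes (224, 0 and 0 at an unadjusted p under 0.05 in limma), with Notch3 at -0.29, Notch4 at 0.81, Dll4 at 0.35, Jag2 at 0.23, Hey2 at 0.40 and Hes1 at 0.24. By tracked array Hey2 was at 0.043. Spike-in scaling, with and without the block, put Notch1 at 0.95, Jag2 at 0.80, Hey2 at 0.92 and Hes1 at 0.57, and normexp, with and without the block, put Hey1 at -0.069. With the block, spike-in scaling gave 12592 genes, 7 Notch genes and 54 pathway genes, quantile normalization 2225 genes and 4 Notch genes, median centring 2944, 4 and 14, and normexp 4402, 4 and 22. The share of called genes that rose was 65.7% here, 57.9% with the block, 76.9% with median centring and 98.5% with spike-ins. The cause of these changes was not tested.

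With 1 array left out, the count was lowest without uninduced replicate 2, at 378 genes, and highest at 824 without uninduced replicate 1, with 1 to 2 Notch genes and 3 to 6 pathway genes. Differences that changed sign ran from -0.89 to 0.24 for Notch1, -0.58 to 0.0094 for Jag2, -0.39 to 0.66 for Hey1 and -0.76 to 0.14 for Hey2. With the block and 1 numbered pair left out there were 1158 to 2106 genes, 3 to 4 Notch genes and 9 to 12 pathway genes. Notch1 then ran from -0.55 to 0.23, Hey1 from -0.30 to 0.49 (-0.056 without pair 2) and Hey2 from -0.95 to 0.19 (0.15 without pair 3). A block on slide or scan was not run, since all arrays share both. Dll4 and Hey2 were dim, and their sizes depend on the background correction (-0.85 and -0.36 with normexp).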
